A study of Mus musculus with 30 samples.

Results

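Leukocytes from the peripheral blood of inbred DBA/2 mice, drawn 5 days after 1 dose of cyclophosphamide, were compared with those of untreated DBA/2 mice. The comparison holds 3 day 5 samples and 4 untreated samples, chosen by their labels, of the 15 blood samples of the series. Mice of the day 5 group had received 83 mg per kg by intraperitoneal injection, and the untreated mice had received no drug. Samples drawn 1 and 2 days after the same dose, 4 of each, serve to show how the day 5 response differed from the earlier ones. Every blood RNA was amplified, labelled with Cy5 and hybridised on 2-colour arrays with a Cy3-labelled reference pool of DBA/2 bone marrow cells, so each value is a log2 ratio of blood over marrow. The reference pool is called untreated in one label and cyclophosphamide-treated in another, and only differences between blood samples are read here, in which a constant reference cancels. The sources used here do not state the age or sex of the mice, or whether a sample is 1 mouse or a pool. Where samples are not separate animals, the p-values cover only the spread between these samples.

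Cyclophosphamide is a prodrug that liver enzymes turn into a DNA-crosslinking mustard, and aldehyde dehydrogenases detoxify its intermediate. Dividing precursors in the marrow and lymphocytes, B cells in particular, are known to be sensitive to it. Circulating leukocyte numbers fall in the days after a dose and recover as the marrow regenerates.

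At day 5 the blood transcriptome differed from untreated in a small set of features, and most of the called changes were falls. Of 13027 features on the array, 7310 had values in at least 2 day 5 and 3 untreated samples and were tested, and 71 (0.971%) passed limma's test at an adjusted p under 0.05. Lower features numbered 52 (0.711%) and higher ones 19 (0.26%). Of the 7310 tested features, 1200 had an unadjusted p under 0.05, 645 of them higher and 555 lower. The unadjusted counts given for lists below stand beside these numbers, and none is read as a result. The called log2 changes, day 5 minus untreated, ran from -2.15 to 1.46, beside a median of 0.0039 over all tested features, of which 50.6% had a positive change. In all 71 called features the day 5 samples lay outside the range of the untreated samples, as they also did in 497 tested features upward (6.8%) and 514 downward (7.03%). A gene symbol was attached to 45 called features, 13 higher and 32 lower. The remaining 26 have probe numbers without a single symbol and include 9 of the 10 largest falls, led by probe 032I15, which fell by 2.15.

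The samples of both groups had values for 7134 to 8424 of 13443 probes per column. Across tested features, the median correlation between samples was 0.77 within the untreated group, 0.76 within the day 5 group and 0.69 between them. Day 5 samples were less like those of day 1 (0.62) and day 2 (0.45). The count of calls moved with single samples. It was 27 without day 5 replicate 1 (3 higher, 24 lower), 98 without replicate 2 (49 higher) and 196 without replicate 3 (77 higher, 119 lower). It was 36 without each of untreated replicates 1, 3 and 4 (3, 5 and 5 higher, 33, 31 and 31 lower) and 69 without untreated replicate 2 (12 higher). Of the 34 called genes described by name, 11 kept their call whichever of the 7 samples was left out.

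B cell surface transcripts were among the largest named falls. Ms4a1, which encodes the B cell antigen CD20, had log2 ratios of -0.10, -0.12, 0.53 and 0.38 in the 4 untreated samples and -1.97, -0.85 and -1.35 in the 3 day 5 samples. It fell by 1.56 ± 0.24 (SE, adjusted p = 0.0039), and day 5 replicate 1 was the lowest. Fcmr, the Fc receptor for IgM, stood at 0.84, 0.78, 1.25 and 1.11 in untreated samples and at -0.72, -0.28 and -0.43 at day 5. Its mean was 1.00 ± 0.22 (SD, n = 4) untreated and -0.48 ± 0.22 (SD, n = 3) at day 5, a fall of 1.47 ± 0.17 (SE, adjusted p = 5.93e-04). Cd22, an inhibitory coreceptor of the B cell receptor, had 0.94, 0.44, 1.29 and 1.31 untreated and -0.33, -0.21 and 0.00 at day 5. It fell by 1.18 ± 0.21 (SE, adjusted p = 0.012), a call that was lost without day 5 replicate 1 (adjusted p = 0.081). In each of these 3 genes every day 5 sample lay below every untreated one. In a bulk blood sample, fewer cells of a type and less of an RNA per cell cannot be told apart.

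Beyond these 3, the B cell list gave no call. Of its 16 members on the array 10 could be tested, 5 had positive changes, 5 were lower at an unadjusted p under 0.05, and the median change was -0.18, which was -0.42 without day 5 replicate 2 and -0.11 without day 5 replicate 1. Cd72, another B cell surface receptor, had a change of 0.44 (adjusted p = 0.61). Blk, a kinase of B cell receptor signalling, had 0.17 (adjusted p = 0.53). Blnk, its adaptor protein, and Fcer2a, the low-affinity IgE receptor CD23, had 0.09 and 0.07 (adjusted p = 0.92 and 0.87). The B cell receptor chain Cd79a and the lineage factor Pax5 had too few values to be tested. Of 6 tested members of the plasma cell and secretory B cell list, 0 were called by limma, 1 was lower at an unadjusted p under 0.05, and the median was 0.04.

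A pair of genes of natural killer (NK) cells and other cytotoxic lymphocytes also fell. Nkg7, a membrane protein of cytotoxic granules, had 0.73, 1.02, 0.93 and 1.01 untreated and -0.43, 0.02 and -0.20 at day 5. It fell by 1.13 ± 0.14 (SE, adjusted p = 9.16e-04), with no overlap between the groups. Klrd1, the CD94 chain of NK lectin receptors, had 1.31, 1.20, 1.52 and 1.42 untreated and 0.32, 0.22 and 0.32 at day 5, so the day 5 samples lay close together. Its fall of 1.08 ± 0.19 (SE, adjusted p = 0.012) was lost without day 5 replicate 1 (adjusted p = 0.063).

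Of 11 tested members of the NK and cytotoxic list these 2 fell, 0 rose, and the median change was -0.24. Klrk1, the activating receptor NKG2D, had a change of -0.78 (adjusted p = 0.30) with groups that did not overlap. Its untreated values were -0.07, -0.10 and, in replicate 4, 1.69, with none in replicate 3, so replicate 4 stood far above the others. The day 5 samples were at -0.16, -0.27 and -0.39, close to the 2 lower untreated values. Ncr1, an activating NK receptor, had -0.56, Klra1, an inhibitory Ly49 receptor, -0.24 and Klrb1c, another NK cell lectin receptor, -0.03 (adjusted p = 0.41, 0.42 and 0.95). Gzmb, the granule protease granzyme B, was on the array with 0 values in both groups.

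T cell transcripts gave no call. The T cell list had 5 tested members of 19 on the array, and by limma 0 were called and 0 had an unadjusted p under 0.05. Cd4, the helper T cell coreceptor, had a change of -0.05 (adjusted p = 0.91), and Cd8b1, a chain of the cytotoxic T cell coreceptor, -0.40 (adjusted p = 0.66). Lat and Cd28, an adaptor of T cell receptor signalling and a costimulatory receptor, had -0.65 and -0.23 (adjusted p = 0.62 and 0.85). The defining chain Cd3e had 0 values in these samples, so few genes stand for T cells here. The list's median was -0.23, and -0.47 when the columns were quantile normalized. Without 1 sample it ran from -0.52 to 0.02, and it turned positive without day 5 replicate 2.

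A pair of interferon-induced transcripts fell from above the marrow reference to about its level or below. Rtp4, an interferon-induced transporter protein, had log2 ratios of 0.86, 0.71, 1.69 and 1.15 in untreated samples and -0.66, -0.40 and -0.25 at day 5. It fell by 1.54 ± 0.25 (SE, adjusted p = 0.0049). Ifi27l2a, an interferon-induced mitochondrial protein, had 1.20, 1.35, 1.27 and 1.39 untreated and 0.02, 0.35 and -0.14 at day 5. Its fall was 1.23 ± 0.16 (SE, adjusted p = 0.001), and both genes kept their call whichever sample was left out.

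The rest of the interferon-stimulated list did not pass. Of 19 tested members 2 fell and 0 rose, and 15 had negative changes. At an unadjusted p under 0.05, 7 were lower and 1 was higher, and the median change was -0.28. With quantile normalized columns 4 members passed, and without untreated replicate 4 the median was -0.17. Ifit2, an antiviral effector, had -0.04 and Ifi27 0.20 (adjusted p = 0.94 and 0.61). Ifi35 had -0.65 and the GTPase Ifi47 -0.30 (adjusted p = 0.13 and 0.61). The untreated samples were themselves uneven for this list, with medians of -0.13, -0.22, 0.14 and 0.17 relative to their own average. Day 5 samples had -0.38, -0.22 and -0.27, so replicate 2 lay at the level of untreated replicate 2. The part of this spread in the list's median was not tested.

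H2-Q8, a nonclassical MHC class I gene, had 0.28, 0.22, 0.32 and 0.35 untreated and -0.55, -0.54 and -0.48 at day 5. It fell by 0.82 ± 0.10 (SE, adjusted p = 9.16e-04) and varied little, with an SD of 0.06 (n = 4) in untreated and 0.04 (n = 3) in day 5 samples. Class I genes are close in sequence, and which of them the probe reads cannot be told apart here. In the antigen presentation list, which does not hold H2-Q8, limma called 0 of 11 tested members, 4 were lower at an unadjusted p under 0.05, and the median was -0.30, or -0.06 without untreated replicate 4. H2-Aa, an MHC class II chain, had a change of -0.77 (adjusted p = 0.12), H2-DMb2 -0.58, H2-DMb1 0.22 and H2-Ob 0.01 (adjusted p = 0.30, 0.39 and 0.97).

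**Figure D1:**
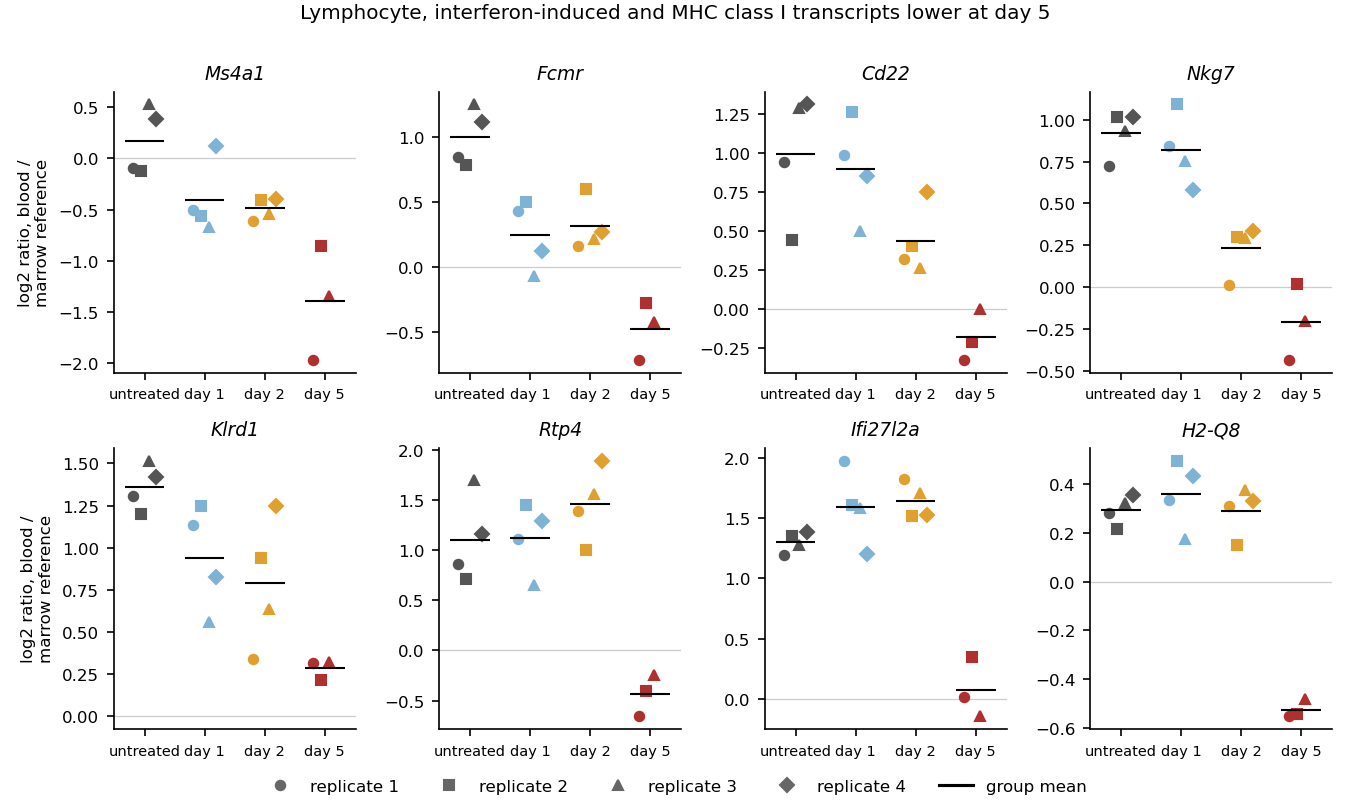
Log2 ratio of blood over marrow reference (y axis) for 8 transcripts in untreated, day 1, day 2 and day 5 samples (x axis); symbols are replicates and bars are group means. In each panel the 3 day 5 samples sit below the 4 untreated samples. Fcmr was called lower already at day 1 and day 2 and Nkg7 at day 2, while Rtp4, Ifi27l2a and H2-Q8 were not called at those days.

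The largest named fall was in Slc40a1, the iron exporter ferroportin of macrophages and other iron-recycling cells. It had log2 ratios of -1.79, -1.65, -1.61 and -1.49 in untreated samples and -3.87, -2.62 and -3.60 at day 5, and day 5 replicate 2 was the least low. The fall was 1.73 ± 0.22 (SE, adjusted p = 9.16e-04). At day 2 the same transcript had been at 0.46, 0.42, 0.16 and 0.69, above every untreated sample by a mean of 2.07 (adjusted p = 3.80e-05). The step from day 2 to day 5 was -3.79 (adjusted p = 7.38e-08).

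Of 10 tested genes of iron handling and heme, Slc40a1 was the one that passed, and the list's median was 0.26. Fth1 and Ftl1, the ferritin chains, had changes of 0.54 and 0.28 (adjusted p = 0.55 and 0.64). Hamp, which encodes the ferroportin ligand hepcidin, had 0.25 and Aco1, an iron regulatory protein, 0.08 (adjusted p = 0.28 and 0.81). Of the list's members 4 were higher and 1 was lower at an unadjusted p under 0.05.

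Cyp4f18, a cytochrome P450 that inactivates leukotriene B4 in myeloid cells, had 0.45, 0.34, 0.97 and 0.85 untreated and -1.06, -0.64 and -0.86 at day 5. It fell by 1.50 ± 0.19 (SE, adjusted p = 9.16e-04). Its day 2 samples were at 2.16, 2.03, 1.64 and 2.05, higher than untreated by 1.32 (adjusted p = 1.52e-04), so the transcript stood above untreated at day 2 and below it at day 5.

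Jdp2, a repressor that binds AP-1 sites, had 0.42, 0.27, 0.00 and 0.08 untreated and -0.96, -0.82 and -0.88 at day 5, where the samples differed by an SD of only 0.07. The fall was 1.08 ± 0.18 (SE, adjusted p = 0.0057). St3gal6, a sialyltransferase that builds selectin ligands, had -0.02, 0.23, 0.38 and 0.49 untreated and -0.60, -0.26 and -0.65 at day 5. It fell by 0.77 ± 0.16 (SE, adjusted p = 0.024). Rgs2, a regulator of G protein signalling, had 1.53, 1.39, 1.47 and 1.62 untreated and 0.91, 0.90 and 0.85 at day 5, with an SD of 0.03 at day 5. It fell by 0.62 ± 0.12 (SE, adjusted p = 0.017), and by 1.00 when the columns were quantile normalized.

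Of the 22 falls described by name, these 5 genes, Slc40a1, Cyp4f18, Jdp2, St3gal6 and Rgs2, were called higher at day 2, as were 3.85% of all features. Over all 52 called falls, with or without a symbol, 10 were called higher at day 2, so the pattern was not confined to these 5. In Jdp2, St3gal6 and Rgs2 the day 2 changes were 1.11, 0.76 and 0.93 (adjusted p = 3.25e-04, 0.0026 and 8.08e-05). St3gal6 lost its day 5 call without untreated replicate 3 or 4 or day 5 replicate 1 or 3 (adjusted p = 0.0504 to 0.13). Rgs2 lost it without untreated replicate 1 or 4 or day 5 replicate 1 (adjusted p = 0.055 to 0.076).

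Cxcr4, the chemokine receptor that holds neutrophils, precursors and B cells in the marrow, had 0.69, 0.32, 0.99 and 1.22 untreated and -0.09, -0.40 and 0.20 at day 5. It fell by 0.90 ± 0.20 (SE, adjusted p = 0.039), and both of its probes had negative changes, -0.73 and -1.07. The call was lost without untreated replicate 1, 3 or 4 or day 5 replicate 1 or 2 (adjusted p = 0.075 to 0.15). In the homing receptor and integrin list it was the 1 called member of 11, with a median of -0.29, or -0.03 without untreated replicate 4. Of the 11, 2 were higher and 4 lower at an unadjusted p under 0.05. Ccr9, a gut-homing receptor, had 0.40, Cxcr3, a receptor of activated lymphocytes, -0.42, and Cxcr6 and S1pr4 had 0.16 and -0.06 (adjusted p = 0.23, 0.16, 0.72 and 0.88).

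Cxcr4 was also the 1 called member among 12 tested genes of mature neutrophils, whose median change was -0.33 at day 5 and 1.13 at day 2. At day 5, 1 of the 12 was higher and 4 were lower at an unadjusted p under 0.05. Without 1 sample the day 5 median ran from -0.59 to -0.08, the latter without day 5 replicate 1. The number of its members called depended on the fit, from 0 with only the 2 groups fitted to 3 with quantile normalized columns. S100a9, an abundant calcium-binding protein of neutrophils, had -3.12, -1.70, -2.95 and -1.58 untreated and -3.83, -2.78 and -1.91 at day 5, a change of -0.50 (adjusted p = 0.56) with overlapping groups. Csf3r, the receptor for granulocyte colony-stimulating factor, had -0.68 and Trem1, an amplifier of neutrophil activation, -0.90, neither called although their groups did not overlap (adjusted p = 0.18 and 0.17). Fpr2, a chemotactic receptor, had -0.26 (adjusted p = 0.59). Il1rn, the interleukin 1 receptor antagonist, missed the threshold narrowly with -1.16 (adjusted p = 0.059) and was picked out after its values were seen.

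Other blood cell lists gave no call. For monocytes and macrophages limma called 0 of 9 tested genes, 3 were lower at an unadjusted p under 0.05, and the median was 0.01, turning to -0.11 with quantile normalized columns, in which 2 passed. It also turned negative, from -0.26 to -0.06, without untreated replicate 2 or 4 or day 5 replicate 1 or 2. Adgre1, a surface receptor that marks macrophages, had -0.25, Mpeg1, a macrophage perforin, -0.52, Ms4a6c -0.50 and F13a1, coagulation factor XIII, 0.35 (adjusted p = 0.54, 0.17, 0.23 and 0.41). Neutrophil precursor granule genes had 0 of 9 called, 0 at an unadjusted p under 0.05 and a median of 0.03. Eosinophil, basophil and mast cell genes had 0 of 7 called, 1 higher and 1 lower unadjusted, and a median of 0.18. Dendritic cell genes had 0 of 7 called, likewise 1 each way unadjusted, and a median of -0.06, which turned to 0.01 with quantile normalized columns and to 0.02 without untreated replicate 4.

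**Figure D2:**
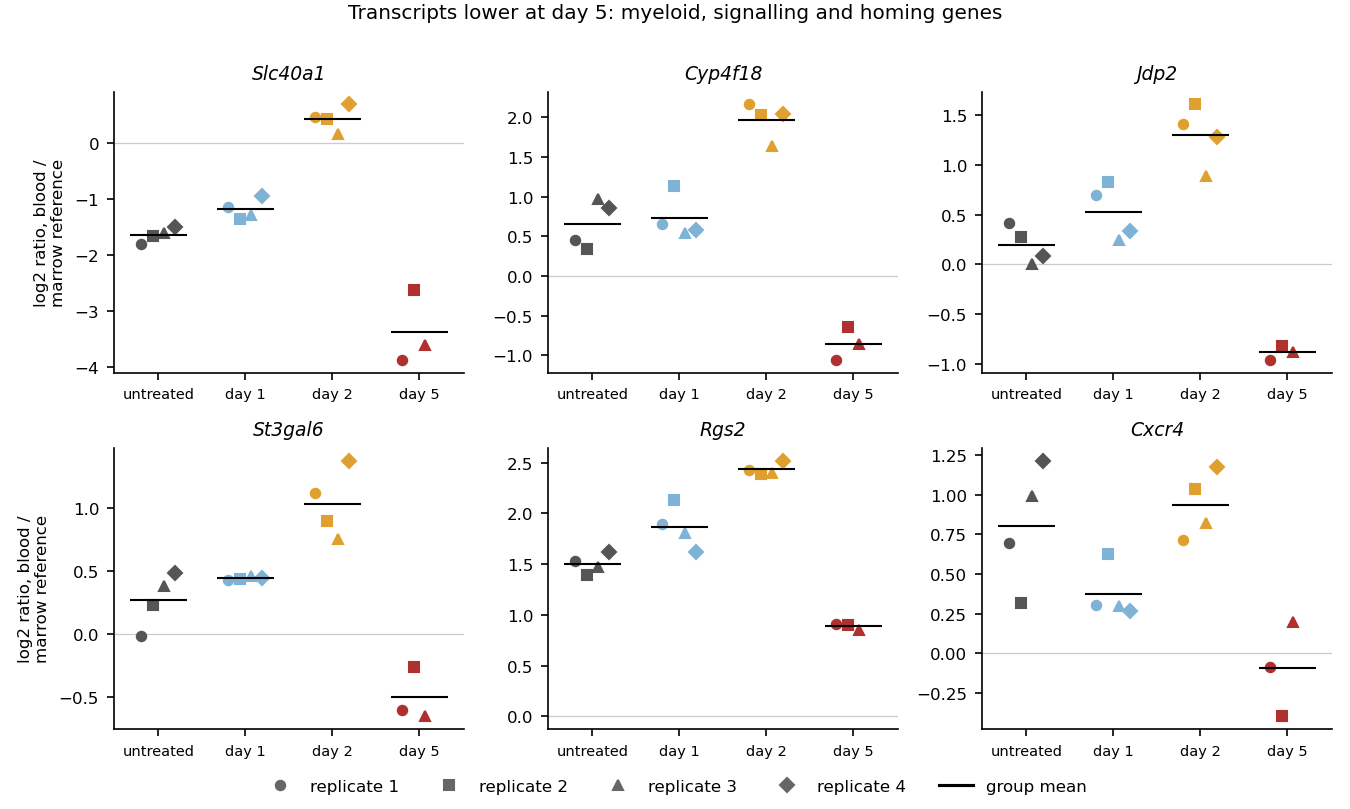
Log2 ratio of blood over marrow reference (y axis) for 6 transcripts lower at day 5, in untreated, day 1, day 2 and day 5 samples (x axis); symbols are replicates and bars are group means. Slc40a1, Cyp4f18, Jdp2, St3gal6 and Rgs2 sit above the untreated samples at day 2 and below them at day 5, while Cxcr4 at day 2 overlaps the untreated samples.

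Further named falls had various roles. Ebi3, a subunit of immunoregulatory interleukins, had -0.18, -0.27, -0.02 and -0.07 untreated and -1.38, -0.89 and -0.81 at day 5 and fell by 0.90 ± 0.19 (SE, adjusted p = 0.029). Arsb, a lysosomal sulfatase, had -0.06, -0.32, -0.41 and -0.35 untreated and -1.26, -1.30 and -0.82 at day 5. It fell by 0.84 ± 0.18 (SE, adjusted p = 0.031) and stood lower still at day 2, by 1.51 (adjusted p = 5.14e-05). Pilrb1, an activating paired receptor of myeloid cells, had -0.01, -0.07, -0.06 and 0.07 untreated and -0.88, -0.59 and -0.90 at day 5, with no overlap. It fell by 0.77 ± 0.14 (SE, adjusted p = 0.014). Peli1, a ubiquitin ligase of Toll-like receptor signalling, had 1.08, 0.84, 1.16 and 1.14 untreated and 0.25, 0.25 and 0.49 at day 5. It fell by 0.72 ± 0.14 (SE, adjusted p = 0.02). P2ry14, a receptor for UDP-glucose, fell by 0.68 ± 0.14 (SE, adjusted p = 0.026). Its day 5 values were -1.07, -0.91 and -0.43, against -0.24, 0.00, -0.15 and -0.09 untreated.

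Med28, a Mediator subunit, had -0.30, -0.10, 0.13 and 0.00 untreated and -0.78, -0.63 and -0.92 at day 5 and fell by 0.71 ± 0.13 (SE, adjusted p = 0.014). Znrd1, a subunit of RNA polymerase I, had 0.17, 0.19, 0.24 and 0.21 untreated and -0.19, -0.64 and -0.56 at day 5 and fell by 0.67 ± 0.13 (SE, adjusted p = 0.022). Atp5g2, which encodes the c subunit of ATP synthase, had -0.21, -0.38, -0.16 and -0.40 untreated and -0.83, -0.73 and -1.01 at day 5 and fell by 0.57 ± 0.13 (SE, adjusted p = 0.042). It was the 1 called of 40 tested respiratory chain and ATP synthase genes, whose median was -0.01, and 0.03 with quantile normalized columns. In these 8 genes, too, each day 5 sample lay below each untreated one.

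All 8 of these calls were lost when a certain sample was left out. Pilrb1 passed neither without untreated replicate 4 nor without replicate 1 of day 5 (adjusted p = 0.0507 and 0.081), Med28 without untreated replicate 3 or 4 or day 5 replicate 1 (adjusted p = 0.0515 to 0.076), and Ebi3 without untreated replicate 1, 3 or 4 or day 5 replicate 1 (adjusted p = 0.07 to 0.17). Znrd1 lost it without untreated replicate 1, 3 or 4 or day 5 replicate 2 (adjusted p = 0.055 to 0.071), and Peli1 without untreated replicate 1, 3 or 4 or day 5 replicate 1 or 2 (adjusted p = 0.058 to 0.10). Arsb and P2ry14 lost it whichever untreated sample was left out, and without day 5 replicate 1 or 2 (adjusted p = 0.059 to 0.16 and 0.0549 to 0.16), and Atp5g2 whichever untreated sample was left out, and without day 5 replicate 1 or 3 (adjusted p = 0.063 to 0.14).

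The immediate early list had 1 call, Rgs2, among 19 tested genes, and a median of -0.33, which was -0.66 with quantile normalized columns and -0.08 without day 5 replicate 2. Of the 19, 2 were higher and 4 lower at an unadjusted p under 0.05. Fos and Fosb, subunits of the AP-1 factor, had changes of -0.87 and -0.73 (adjusted p = 0.47 and 0.40). Fos stood at 1.14, 1.41, 1.86 and 3.25 in untreated and 0.37, 0.09 and 2.67 in day 5 samples, so day 5 replicate 3 lay within the untreated range. Fosl1 and Junb had 0.25 and -0.42 (adjusted p = 0.29 and 0.35). Over the list, medians relative to the untreated average were -0.23 and -0.15 in untreated replicates 1 and 2, 0.23 in both untreated replicates 3 and 4, and -0.51, -0.59 and 0.04 at day 5.

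Fewer genes were called higher than lower, and H1f2 had the largest called rise. H1f2 encodes a linker histone, one of the proteins that bind DNA between nucleosomes and are made largely during DNA replication. It had log2 ratios of 2.35, 2.26, 2.71 and 2.49 in untreated samples and 4.21, 3.27 and 4.25 at day 5, where replicate 2 was the lowest. The means were 2.45 ± 0.20 (SD, n = 4) and 3.91 ± 0.56 (SD, n = 3), a rise of 1.46 ± 0.27 (SE, adjusted p = 0.014). At day 1 it had been higher by 1.66 (adjusted p = 0.0051), and the difference between the day 5 and day 1 responses was -0.21 (adjusted p = 0.64). Leaving out replicate 1 of either group ended the day 5 call (adjusted p = 0.0549 and 0.10). The call was also lost with all samples under limma's trended robust prior (adjusted p = 0.12).

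The promoters of H1f2, the largest named rise, and of Vcl, another rise, are printed because each holds a textbook element of its gene class, and they were picked after the values were seen. Both are RefSeq sequences of build GRCm38.p6 on the plus strand, the 250 bases before the annotated start, H1f2 at chr13:23738557-23738806 and Vcl at chr14:20929148-20929397. In H1f2 the capitals mark the letters AAACACA, the AC box of linker histone genes, and CCAAT. In Vcl they mark the CArG box, the binding element of serum response factor, which reads the same on both strands.
H1f2: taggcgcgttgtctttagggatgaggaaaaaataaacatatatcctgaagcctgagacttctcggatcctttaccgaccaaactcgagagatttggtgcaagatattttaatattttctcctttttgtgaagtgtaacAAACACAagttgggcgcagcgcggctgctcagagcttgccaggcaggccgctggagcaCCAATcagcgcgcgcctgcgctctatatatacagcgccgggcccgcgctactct
Vcl: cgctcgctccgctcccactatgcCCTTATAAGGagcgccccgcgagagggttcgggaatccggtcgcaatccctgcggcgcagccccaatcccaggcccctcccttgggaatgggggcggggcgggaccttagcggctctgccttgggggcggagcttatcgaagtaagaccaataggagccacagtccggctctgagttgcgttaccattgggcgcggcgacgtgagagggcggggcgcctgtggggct
Searched on both strands, AAACACA occurs in 6.25% of the 32851 promoter windows of that length in the table, CCAAT in 33.9% and the CArG box in 1.47%. Of the 36 called genes whose promoter the table holds, 2 had AAACACA (H1f2 and Cxcr4), 17 had CCAAT and 1 (Vcl) had the CArG box. A match describes the letters of a window and is not taken as a bound site.

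Dut, the enzyme that removes dUTP so that uracil is not built into DNA, had -1.69, -1.44, -1.67 and -1.85 untreated and -0.17, -0.73 and -0.49 at day 5. It rose by 1.20 ± 0.19 (SE, adjusted p = 0.0047) and kept its call whichever sample was left out. It was the 1 called member of 17 tested DNA replication genes, whose median change was 0.19, or 0.06 without day 5 replicate 2 and -0.02 without untreated replicate 4. Mcm4 and Mcm6, subunits of the replicative helicase, had 0.26 and 0.50 (adjusted p = 0.73 and 0.60). Mcm10 had 0.12 and Pcna, the sliding clamp, -0.12 (adjusted p = 0.82 and 0.82).

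Cell division genes gave 0 calls among 17 tested by limma, 1 higher and 1 lower at an unadjusted p under 0.05, although 15 changes were positive and the median was 0.36, or 0.04 without untreated replicate 4. Ccna2, a cyclin, had 0.31, -0.04, -0.95 and -1.10 untreated and 0.31, 0.25 and -0.06 at day 5, a change of 0.61 (adjusted p = 0.32) with overlapping groups. Cdk1, its kinase, had 0.21, Cdc20, an activator of anaphase, 0.10 and Bub1, a spindle checkpoint kinase, 0.06 (adjusted p = 0.88, 0.95 and 0.90). The list's median relative to the untreated average was 0.19 and 0.50 in untreated replicates 1 and 2 but -0.33 in both replicates 3 and 4, and the day 5 samples, at 0.20, 0.51 and 0.38, lay close to the first pair. Mki67, the proliferation marker, had too few values to be tested.

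Ufsp1, a protease that processes the ubiquitin-like protein UFM1, had -1.04, -0.76, -0.87 and -1.06 untreated and 0.14, -0.08 and 0.19 at day 5. It rose by 1.02 ± 0.11 (SE, adjusted p = 5.23e-04), the smallest adjusted p among the rises, and kept its call whichever sample was left out. It was called higher at every time: by 0.87 at day 1 and 0.45 at day 2 (adjusted p = 0.0014 and 0.0099).

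Gpx4, the glutathione peroxidase that reduces lipid peroxides, had 0.26, 0.22, 0.40 and -0.08 untreated and 1.07, 1.27 and 1.06 at day 5. It rose by 0.94 ± 0.21 (SE, adjusted p = 0.048), just inside the threshold, and lost its call whichever of the 7 samples was left out (adjusted p = 0.0505 to 0.15), while its change stayed between 0.84 and 1.00. It was the 1 called of 20 tested aldehyde and glutathione detoxification genes, whose median was 0.14. Aldh2 and Aldh7a1, aldehyde dehydrogenases, had 0.44 and 0.15 (adjusted p = 0.25 and 0.77). The glutathione transferases Gsta1 and Gstm5 had 0.13 and -0.03 (adjusted p = 0.80 and 0.96).

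Vcl, Flna and Rsu1 also rose and are in no list here. Vcl, which encodes vinculin, the link between integrins and actin, had -0.44, -0.24, 0.18 and 0.11 untreated and 0.90, 0.48 and 1.27 at day 5, a rise of 0.98 ± 0.21 (SE, adjusted p = 0.039). Flna, the actin crosslinker filamin A, had 0.38, 0.26, 0.05 and 0.05 untreated and 0.99, 0.64 and 1.38 at day 5, a rise of 0.82 ± 0.18 (SE, adjusted p = 0.045). Rsu1, a partner of the integrin-linked kinase complex, had 0.57, 0.30, 0.78 and 0.53 untreated and 1.53, 0.95 and 2.09 at day 5, a rise of 0.98 ± 0.21 (SE, adjusted p = 0.031). In all 3 genes day 5 replicate 3 was the highest and replicate 2 the lowest. Each lost its call whichever untreated sample was left out, and without day 5 replicate 1 or 3 (adjusted p = 0.0506 to 0.15 for Vcl, 0.065 to 0.15 for Flna and 0.0501 to 0.13 for Rsu1).

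**Figure D3:**
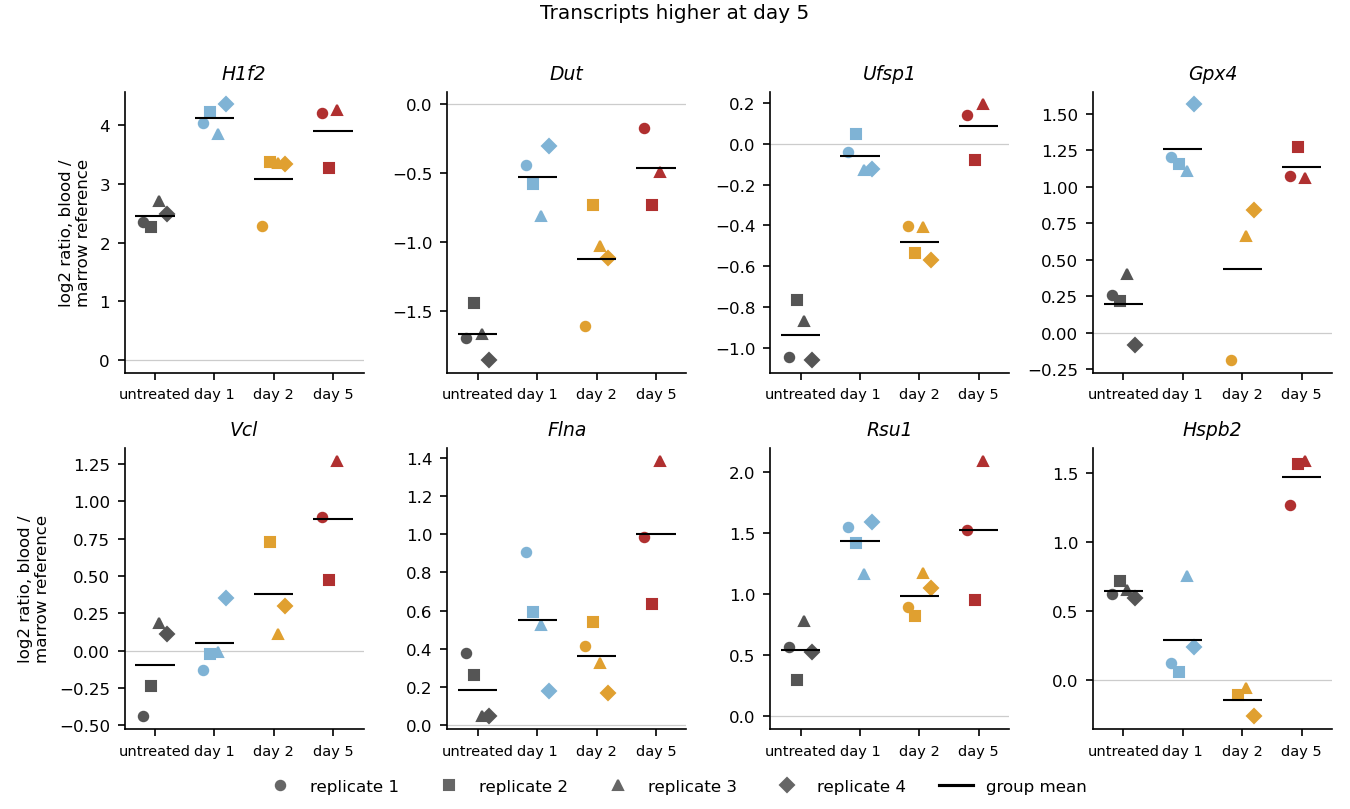
Log2 ratio of blood over marrow reference (y axis) for 8 transcripts higher at day 5, in untreated, day 1, day 2 and day 5 samples (x axis); symbols are replicates and bars are group means. The 3 day 5 samples sit above the 4 untreated ones in every panel, and H1f2, Dut, Ufsp1, Gpx4 and Rsu1 were also called higher at day 1.

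Platelet and megakaryocyte transcripts, which can reach a leukocyte preparation with platelets, had positive changes that did not pass the test. Limma called 0 of 9 tested members, 5 were higher at an unadjusted p under 0.05, all 9 changes were positive, and the median was 0.73, or 0.45 with quantile normalized columns, in which 2 passed, and 1.23 without day 5 replicate 2. Pf4, platelet factor 4, had 2.25, 2.17, 2.17 and 2.32 untreated and 3.78, 1.59 and 3.41 at day 5, a change of 0.70 (adjusted p = 0.63). Itga2b, the platelet fibrinogen receptor chain, had 2.62, 2.57, 2.79 and 2.15 untreated and 3.56, 3.14 and 3.97 at day 5, a change of 1.03 (adjusted p = 0.10), and its groups did not overlap. Treml1, a receptor of platelet granules, had 0.91 and Ppbp, a platelet chemokine, 0.46 (adjusted p = 0.30 and 0.67). F2rl2, a protease-activated receptor, had 1.42 and was, of the uncalled genes with a symbol, the nearest to the threshold (adjusted p = 0.0505). Both it and Clu, clusterin, with 1.54 (adjusted p = 0.09), were picked out after their values were seen.

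The samples differed in this list. Its median relative to the untreated average ran from -0.09 to 0.26 in the untreated samples and was 1.03, 0.31 and 1.40 in day 5 replicates 1, 2 and 3. Replicate 2 was the lowest of the day 5 samples in 7 of the 8 platelet genes with 3 values, and without it 4 platelet members passed. It was also the lowest in 8 of the 10 named rises with 3 values, among them H1f2, Dut, Ufsp1, Vcl, Flna, Rsu1, Clca3a1 and Riok3. The share of all tested features in which replicate 2 was the lowest was not computed, so nothing is read from either count. The part of platelet RNA in the named rises was not tested.

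**Figure D4:**
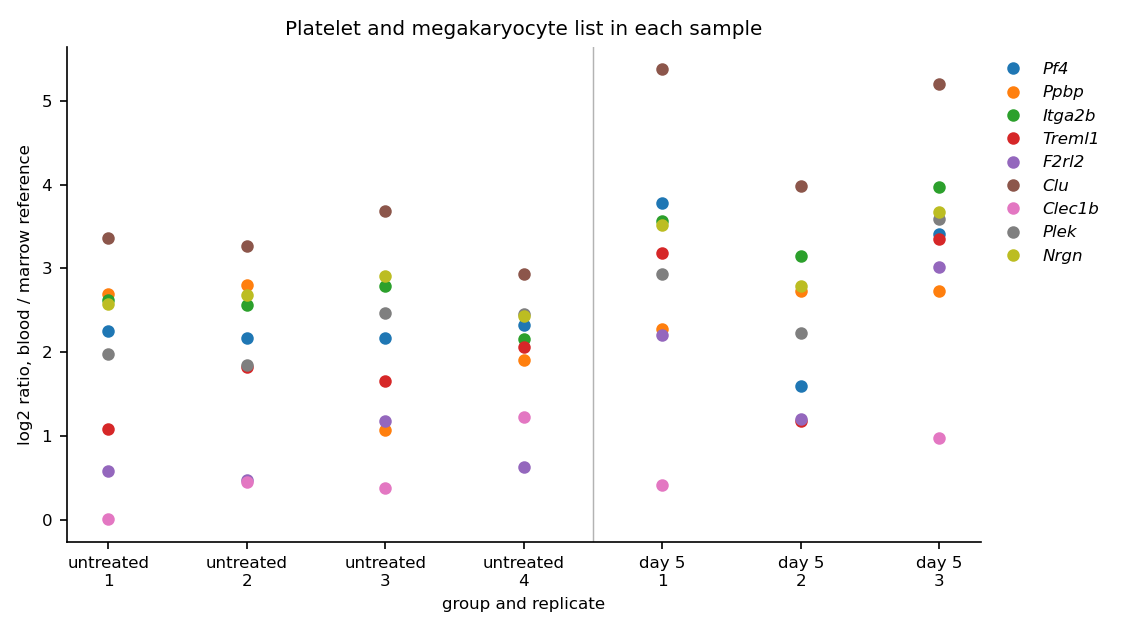
Log2 ratio of blood over marrow reference (y axis) of the 9 tested platelet and megakaryocyte genes, 1 colour per gene, in each untreated and day 5 sample (x axis). Day 5 replicates 1 and 3 stand above all untreated samples for Pf4, Itga2b, Treml1, F2rl2, Clu, Plek and Nrgn, while day 5 replicate 2 lies nearer to them and for Pf4 below them.

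The remaining rises described by name have no common role in the lists. Clca3a1, a secreted chloride channel regulator, had -0.13, 0.10, 0.08 and -0.20 untreated and 1.18, 0.49 and 1.97 at day 5, a rise of 1.25 ± 0.26 (SE, adjusted p = 0.028) with wide spread at day 5. Hspb2, a small heat shock protein, had 0.62, 0.72, 0.65 and 0.59 untreated and 1.27, 1.57 and 1.59 at day 5, a rise of 0.83 ± 0.15 (SE, adjusted p = 0.017). It had been lower than untreated at day 2, by 0.79 (adjusted p = 0.0037). Reps1, an endocytosis protein, had 0.37, 0.30 and 0.53 in the 3 untreated samples with a value and 1.20 and 1.25 at day 5. It rose by 0.82 ± 0.15 (SE, adjusted p = 0.031) and was likewise lower at day 2, by 0.67 (adjusted p = 0.018). Ambp, the precursor of the plasma proteins alpha-1-microglobulin and bikunin, had 0.31, 0.04, 0.26 and 0.10 untreated and 1.08 and 0.90 at day 5 and rose by 0.82 ± 0.16 (SE, adjusted p = 0.04). Both Reps1 and Ambp had values in only 2 day 5 samples. Riok3, a kinase of ribosome maturation that is abundant in maturing red cells, had -0.10, 0.03, 0.06 and 0.16 untreated and 0.70, 0.39 and 1.40 at day 5, a rise of 0.79 ± 0.18 (SE, adjusted p = 0.041).

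All 5 of these calls were lost when a certain sample was left out. Hspb2 lost it without untreated replicate 1, 3 or 4 (adjusted p = 0.0501 to 0.056), Clca3a1 without those or day 5 replicate 1 (adjusted p = 0.059 to 0.11), and Reps1 and Ambp whichever untreated sample was left out and without day 5 replicate 1 or 2 (adjusted p = 0.0507 to 0.16 and 0.071 to 0.25). Riok3 lost it whichever untreated sample was left out and without day 5 replicate 1 (adjusted p = 0.074 to 0.12), and without day 5 replicate 3 its change was 0.51 and still passed (adjusted p = 0.049).

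Red cell transcripts gave 0 calls among 14 tested by limma, 2 higher and 1 lower at an unadjusted p under 0.05, with a median of 0.22, or 0.06 without untreated replicate 4. Alas2, the first enzyme of heme synthesis in red cells, had -0.47, -0.30, 0.39 and 0.77 untreated and 0.64, 0.49 and 1.39 at day 5, a change of 0.74 (adjusted p = 0.41). Hba-a1, an alpha globin gene, had -0.13 (adjusted p = 0.68), Klf1 and Gata1, red cell transcription factors, 1.27 and 0.24 (adjusted p = 0.56 and 0.40). Untreated replicate 4 had -4.35 for Klf1, far below the other 2 untreated values.

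For p53 targets limma called 0 of 11, 3 were lower and 1 higher unadjusted, and the median was -0.09. With quantile normalized columns 2 p53 targets passed, as 2 did without day 5 replicate 3 and 1 without untreated replicate 2. Cdkn1a, the p21 cell cycle inhibitor, had -0.49 and Bbc3, a proapoptotic factor, 0.05 (adjusted p = 0.54 and 0.95). Btg2, an antiproliferative p53 target, just missed the threshold with -1.16 (adjusted p = 0.053), as seen after its values were known. DNA repair genes had 0 of 13 called, 2 higher unadjusted and a median of 0.06. Apoptosis regulators had 0 of 11 called, 2 lower unadjusted and a median of -0.19, and chaperones 0 of 17, 1 each way and 0.09.

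Cytosolic ribosomal proteins had 0 of 33 called by limma, 1 higher and 3 lower unadjusted, and a median of -0.05. Proteasome genes had 0 of 22 called, 3 higher and 2 lower unadjusted, and a median of -0.08. Cytokines and chemokines had 0 of 27 called, 3 higher and 1 lower unadjusted, and a median of -0.02. Stem and progenitor cell genes had 0 of 6 called, 1 higher unadjusted and a median of 0.24, which was -0.0047 without day 5 replicate 3, and endothelial genes 0 of 8, 2 higher unadjusted and 0.09.

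**Figure D5:**
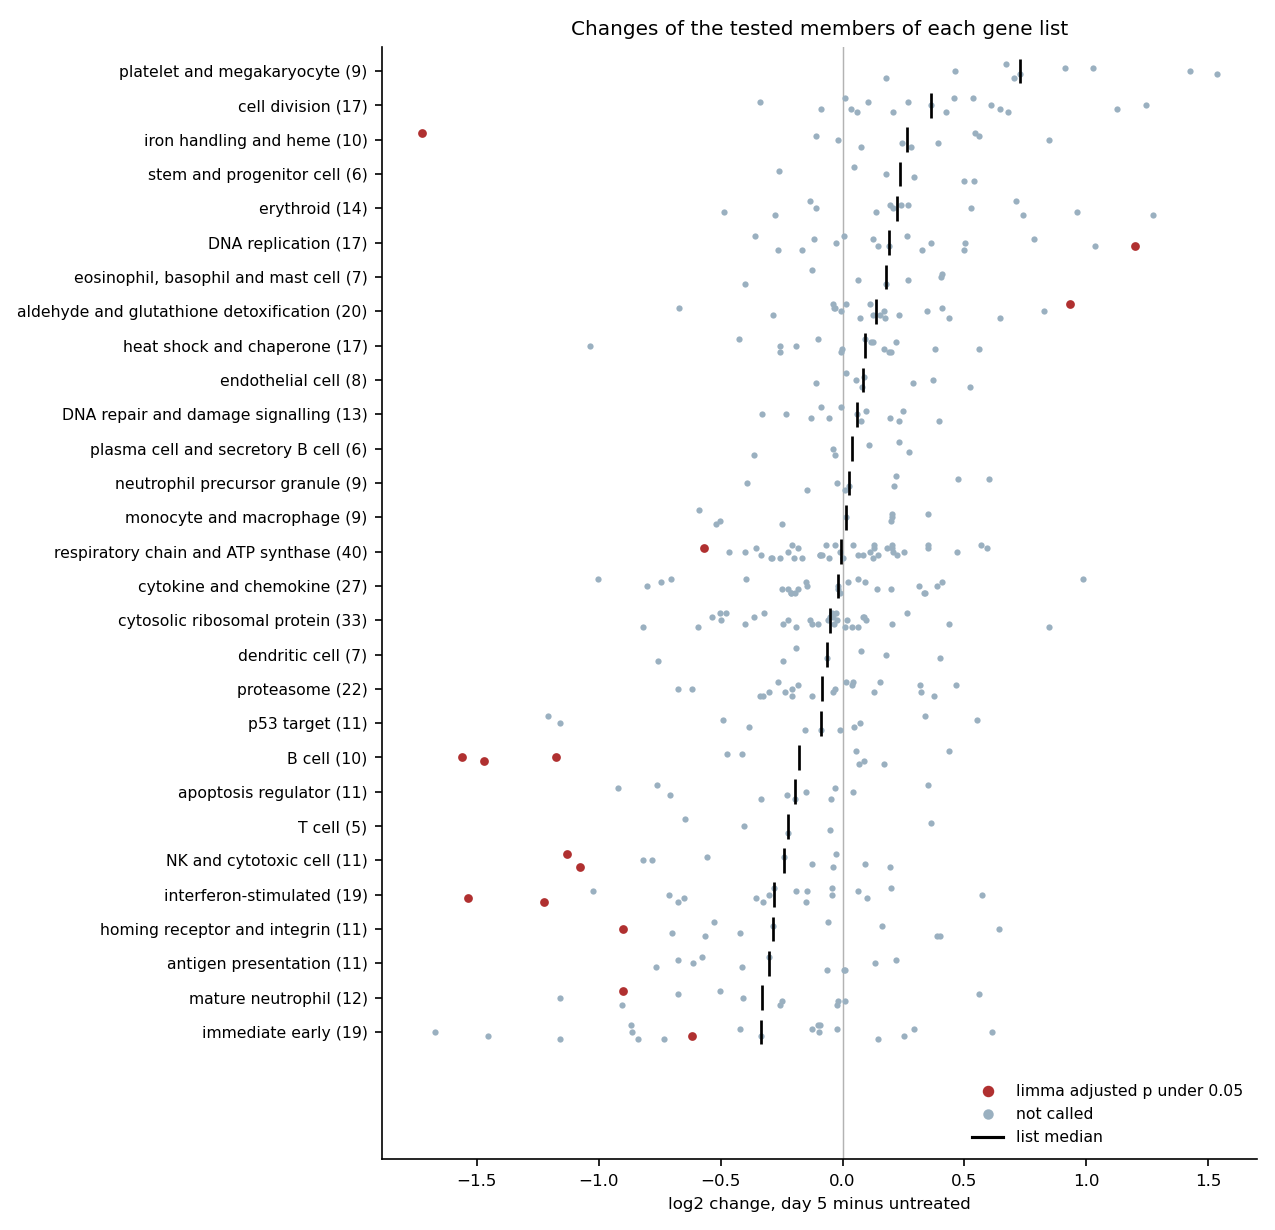
Log2 change, day 5 minus untreated (x axis), of every tested member of 29 gene lists (y axis, number of tested members in brackets), sorted by list median; red points passed limma's test, grey-blue points did not and black bars are list medians. The platelet list has the highest median, 0.73, with no called member, and the calls on the left are in the B cell, NK, interferon, neutrophil, homing, iron, respiratory chain and immediate early lists.

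Set against the earlier times directly, more features were called between day 5 and day 2 or day 1 than between day 5 and untreated. Limma called 1629 of 7299 features (22.3%) between day 5 and day 2 and 1200 of 7307 (16.4%) between day 5 and day 1. The latter count was 720 and 695 without day 1 replicates 1 and 2, and 668 and 694 without day 5 replicates 1 and 2. Day 1 and day 2 themselves differed from untreated in 263 (3.6%) and 775 (10.6%) features. These comparisons share their untreated or day 5 samples, so each gene's values are given side by side and no overlap is read as a result. Of the 22 named falls, 20 were lower at day 5 than at day 2, as were 10.9% of all features, and 19 lower than at day 1 (7.76% of all), 18 of them in both tests. Of the 12 named rises, 10 were higher at day 5 than at day 2 (11.4% of all) and 5 higher than at day 1 (8.66% of all), 4 of them in both tests. The genes were chosen on the same day 5 samples, so nothing is read from these counts.

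Of the 5 B cell and NK genes called at day 5, Fcmr and Nkg7 were called lower at an earlier time, as were 1.77% of all features at day 1 and 6.77% at day 2. Fcmr was lower by 0.75 at day 1 and 0.69 at day 2 (adjusted p = 0.02 and 0.0098) and fell by a further 0.79 from day 2 to day 5 (adjusted p = 0.0034). Nkg7 was lower by 0.69 at day 2 (adjusted p = 0.0033) and changed by -0.44 from there to day 5 (adjusted p = 0.038). Ms4a1 had changes of -0.58 and -0.66 at days 1 and 2 that did not pass (adjusted p = 0.17 and 0.072). Cd72 and Klra1, not called at day 5, were called lower at day 2, by 1.38 and 0.48 (adjusted p = 0.023 and 0.031).

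The interferon-induced genes and H2-Q8 were not called at either earlier time, and all 3 were lower at day 5 than at day 1 and day 2. Rtp4 had changes of 0.02 at day 1 and 0.36 at day 2, and day 5 minus day 2 was -1.89 (adjusted p = 5.56e-05). Ifi27l2a had 0.29 and 0.34, and day 5 minus day 2 was -1.57 (adjusted p = 8.51e-06). H2-Q8 had 0.07 at day 1, and day 5 minus day 1 was -0.88 (adjusted p = 3.43e-04).

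Of the 12 rises described by name, 5 had been called higher at day 1, as were 1.83% of all features. Over all 19 called rises, with or without a symbol, 9 had been called higher at day 1. H1f2, Dut, Ufsp1, Gpx4 and Rsu1 were higher by 1.66, 1.13, 0.87, 1.06 and 0.89 at day 1, and for none of them was the step from day 1 to day 5 called. Vcl had a change of 0.14 at day 1 (adjusted p = 0.75) and was higher at day 5 than at day 1 by 0.83 (adjusted p = 0.016). Hspb2 was higher at day 5 than at day 2 by 1.62 (adjusted p = 9.80e-06).

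The blood cell lists differed over time in their sample medians, each relative to the untreated average. The monocyte and macrophage list ran from -1.04 to -0.45 at day 1, from -1.13 to -0.84 at day 2 and from -0.18 to -0.10 at day 5. The median of its members' fitted day 5 changes, another measure, was 0.01, so for this list the 2 measures differ in sign. The mature neutrophil list ran from 0.75 to 1.17 at day 2 and from -0.62 to -0.15 at day 5. The B cell list ran from -0.65 to -0.24 at day 2 and from -0.44 to -0.13 at day 5. The platelet list ran from 1.21 to 1.56 at day 1, from 0.21 to 1.06 at day 2 and from 0.31 to 1.40 at day 5.

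Features with values in only 1 of the 2 groups could not be tested. Of the array's features, 12 had values in all 3 day 5 samples and in 0 untreated samples, 9 of them with a symbol, and 2 had values in all 4 untreated samples and in 0 day 5 samples, 1 of them with a symbol. None of these 14 is a member of a list. Counting features with at least 2 day 5 values and 0 untreated values gave 87, and those with at least 3 untreated values and 0 day 5 values gave 25. Smyd3, a lysine methyltransferase, was the named one of the 2 with 4 untreated and 0 day 5 values. It was at 0.50, 0.26, 0.31 and 0.06 in untreated samples and is given after its values were seen. The sources used here do not state why cells of the deposited table are empty, so an empty value is not read as absence of the RNA.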

How the data were processed

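The authors deposited 1 log ratio per probe of Cy5 blood over Cy3 marrow reference, made from 2-colour arrays of amplified RNA per the labels' protocols and taken here as log2. Their range, -4.70 to 5.76, goes beyond log10 of 16-bit intensities (4.82), while base e cannot be told apart. Column medians lay between -0.0028 and 0.0254. The scanner, background correction, normalization and reason for empty cells: not given in the sources used here. Samples were grouped by the labels. The 30 columns are 2 technical replicates of each of 15 samples and were averaged first. Of 13443 probes, 10032 had 1 gene symbol in the platform annotation, 170 several and 3241 none; symbols were matched to RefSeq (4 not matched), and several probes of 1 symbol (389 symbols) were averaged, giving 13027 features. Features with values in at least 2 day 5 and 3 untreated samples were tested. One mean per group was fitted over all 15 samples with limma 3.58.1 in R 4.3.3 (lmFit, eBayes; package data.table in version 1.17.8), with Benjamini-Hochberg adjustment over all tested features and a threshold of 0.05. The code of the fit was run on simulated data with independent normal errors and 1 spread per feature. That run does not cover unequal spread between groups or effects of single samples. Figures used Python 3.11.15 and matplotlib 3.10.9.

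Named are the 12 largest rises and 20 largest falls with 1 symbol among the calls, every called list member and up to the first 4 tested uncalled members of each list. Cd79a, Pax5, Gzmb, Cd3e and Mki67 are also named, outside this rule, as list members with too few values to be tested. Other names are marked as chosen after their values were seen. The comparison, the 29 gene lists and the tests were chosen with earlier results of these data known. Promoters are the 250 bases before the start in a RefSeq table of build GRCm38.p6. Alternatives varied the filter, normalization, technical replicates, samples fitted, prior, weights, probe averaging, the replicate block and single samples left out.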

Additional observations from a re-analysis of the deposited data

Results flagged for a closer look

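Among 94 groups of 4 samples checked, 3 held a sample standing apart from the others, and chance gives about 1 in 20. H1f2 was at 2.28 in day 2 replicate 1, against 3.37, 3.36 and 3.33 in the other day 2 samples. Nkg7 was at 0.012 in day 2 replicate 1, against 0.30, 0.30 and 0.34. Cxcr4 was at 0.63 in day 1 replicate 2, against 0.31, 0.30 and 0.27. None of these is an untreated sample, and the day 5 group, with 3 samples, was not checked.

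Of the 34 called genes named, 31 differed between the day 5 and day 2 responses, tested by limma as day 5 minus day 2 in log2, as did 22.3% of all features. The genes were chosen on the same day 5 samples, so nothing is read from this count or the next. Among the falls the difference was -3.79 for Slc40a1, -2.82 for Cyp4f18, -2.19 for Jdp2, -1.55 for Rgs2 and -1.53 for St3gal6, the 5 named falls that had been called higher at day 2. It was -1.89 for Rtp4, -1.57 for Ifi27l2a and -0.81 for H2-Q8. The lymphocyte genes had -0.90 (Ms4a1), -0.79 (Fcmr), -0.61 (Cd22) and -0.44 (Nkg7). Pilrb1 had -1.16, Cxcr4 -1.03, Peli1 -1.002, P2ry14 -0.96, Ebi3 -0.91, Znrd1 -0.81, Med28 -0.59 and Atp5g2 -0.53. Arsb went the other way, with 0.67, since it was lower at day 2 than at day 5. Among the rises the difference was 1.62 for Hspb2, 1.50 for Reps1, 1.35 for Clca3a1, 1.12 for Riok3 and 0.97 for Ambp. H1f2 had 0.82, Gpx4 0.70, Dut 0.65, Flna 0.64 and Ufsp1 0.56.

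The day 5 and day 1 responses differed in 24 of the 34 genes and in 16.4% of all features. Slc40a1 had -2.18, Cyp4f18 -1.58, Rtp4 -1.56, Ifi27l2a -1.52 and Jdp2 -1.41. The lymphocyte genes had -1.08 (Cd22), -1.02 (Nkg7), -0.98 (Ms4a1), -0.72 (Fcmr) and -0.66 (Klrd1). Rgs2 had -0.98, St3gal6 -0.94, H2-Q8 -0.88, Peli1 -0.85, P2ry14 -0.81, Znrd1 -0.72, Pilrb1 -0.69, Atp5g2 -0.66 and Med28 -0.56. The rises had 1.26 (Reps1), 1.18 (Hspb2), 0.90 (Ambp), 0.83 (Vcl) and 0.76 (Riok3).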

How the results depend on the processing

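None of the 71 called changes reversed under the alternatives to the fit, the filter and the samples in which it had a value. The count of 71 features called at day 5 against untreated was 107 with quantile normalized columns (18 higher, 89 lower). It was 411 with both technical replicates kept and the sample as a random effect (179 higher, 232 lower), and 32 when only the 2 groups were fitted (6 higher, 26 lower). With the other filters, either technical replicate alone, a trended prior, array weights or single probes it stayed within 1.5 times. Leaving out 1 sample gave 27 to 196 calls, 3 to 77 of them higher and 24 to 119 lower. The 1629 calls between day 5 and day 2 became 910 with only those 2 groups fitted and 1137 to 1812 without 1 sample, and the 1200 between day 5 and day 1 became 668 to 1529 without 1 sample. Deviations of same-numbered day 5 and untreated samples had correlations of 0.01, 0.13 and -0.13. With only 3 such pairs, these values cannot decide whether the numbers pair the samples. With the replicate block 47 features were called, 7 of them higher and 40 lower, 43 of them among the 71. Of the 34 named calls, 11 held under every alternative and without any 1 sample (Dut, Ufsp1, Slc40a1, Ms4a1, Rtp4, Cyp4f18, Fcmr, Ifi27l2a, Nkg7, Jdp2 and H2-Q8) and 23 were lost at least once. Apart from that of H1f2 with the trended robust prior, the losses given for genes above are those without 1 sample. Other alternatives also ended some of these calls. List medians moved by over 1 SD in 73 of 522 recomputed values. The number of samples limits the precision, and signal over background was not analysed here.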
